A study of Olea europaea var. sylvestris with 6 samples.

Results

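A set of 133 genes was read in stems of both wild olive genotypes, but at least 4 times higher in AC15 than in AC18. The members were chosen on the measured values themselves, out of the 50668 rows of the deposited table. Counts were scaled to CPM (the count divided by the total of its library and multiplied by 1000000). A row was taken if its mean over the 3 AC15 libraries was at least 20 CPM, if that mean was at least 4 times the mean over the 3 AC18 libraries, and if every AC18 library held at least 1 count. The 200 rows with the highest mean CPM over all 6 libraries were left out. Since all 6 libraries entered the choice, the height of these genes in AC15 is a description and carries no test below.

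The plants were Olea europaea var. sylvestris, the wild form of the cultivated olive. AC15 is classified by the submitters as susceptible and AC18 as tolerant to Verticillium wilt, and each class is represented by 1 variety. All plants were non-treated, self-rooted from leafy cuttings, 6 to 10 months old and 40 to 52 cm tall, with 2 months in a greenhouse before sampling. RNA came from stem, in 3 biological replicates per genotype. No infected plants are part of the comparison, so it concerns the state of the stem before any contact with the pathogen.

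Verticillium wilt is caused by Verticillium dahliae, a soil-borne fungus that enters through the roots and spreads in the xylem, the water-conducting tissue of the stem. Plants restrict such fungi by closing vessels with gels and outgrowths of neighbouring cells, by strengthening cell walls, and by making antifungal proteins and phenolic compounds. Differences in transcript level between varieties can arise, among other ways, through differences in gene control, in gene copies or in the make-up of the tissue. In RNA from whole stem, fewer cells of a type and less RNA per cell cannot be told apart. A look-up of the 50668 identifiers among the 47911 genes that RefSeq lists for this plant gave 0 matches, and the files do not pair identifiers with names. No product, function, sequence, position or tissue marker is therefore given for any member, and each is called by its identifier.

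Library totals ran from 7468058 to 8589143 counts. Within AC15, replicate 2 deviated most. Compared with it, replicates 1 and 3 gave a chi-square per row of 4.56 and 4.23, while the same measure between replicates 1 and 3 was 1.74 and sampling noise alone would give about 1. Without that library the rule took 129 rows, of which 124 were among the 133. The median spread within AC15 and the median fitted difference of the members are given with and without it. The fitted differences of single genes are given with all libraries, and for Oeu061865.1 also without it.

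The set is a small part of the abundant stem transcripts. A mean of at least 20 CPM in AC15 was reached by 9661 rows, and 141 of these were at least 4 times higher than in AC18. Of the 141, 6 lacked a count in at least 1 AC18 library, and 1 of these 6 had none in any AC18 library. A further 2 belonged to the 200 most abundant rows, which left the 133. Since CPM is not divided by transcript length, a long transcript passes the limit of 20 CPM more easily than a short one, and an order of genes by CPM is one of counts per library, not of transcript numbers.

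Together the members took close to 1% of the stem transcript counts in AC15. Their share was 0.949%, 1.02% and 0.966% of the library in AC15 replicates 1, 2 and 3, and 0.143%, 0.145% and 0.146% in the AC18 replicates. All AC15 libraries lay above all AC18 libraries, which the choice of members fixes. For AC15 the mean was 0.978% ± 0.0373, and for AC18 it was 0.144% ± 0.00138 (SD, n = 3 each). The 10 members with the most counts supplied 29.3% of the AC15 sum.

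**Figure D1:**
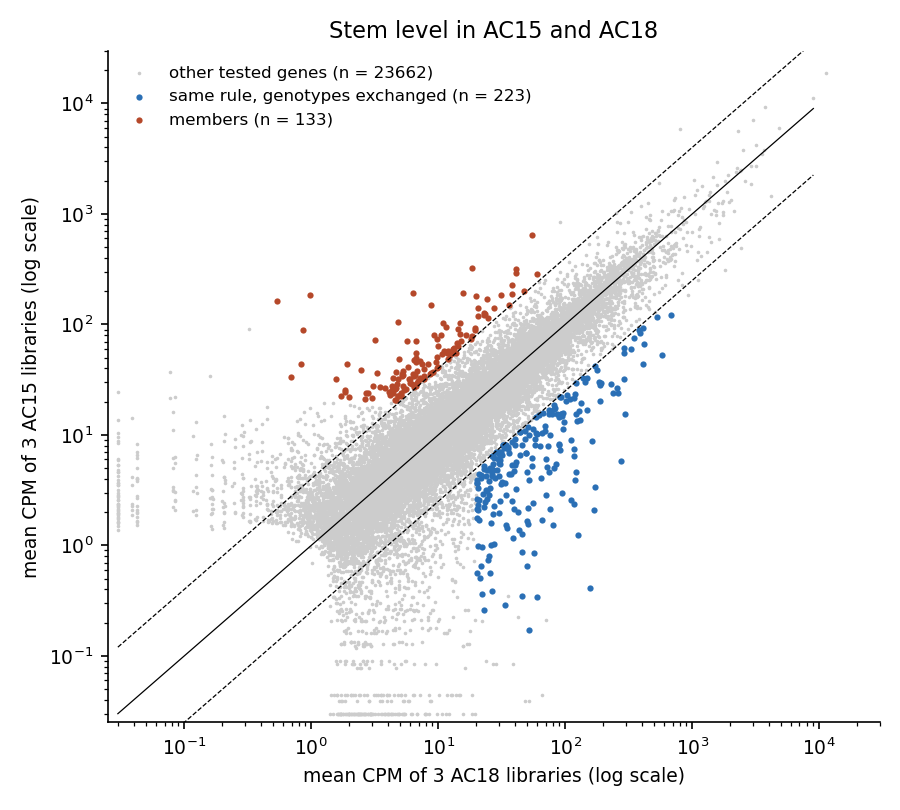
Mean CPM in AC15 (vertical) against AC18 (horizontal), both on log scales, for the 24018 genes tested by edgeR. Each point is a gene, means under 0.03 are drawn at 0.03, the solid line marks equal levels and the dashed lines 4-fold differences. The 133 members (red) lie above the upper dashed line at 20 CPM or more in AC15, and the 223 rows taken by the same rule with the genotypes exchanged (blue) lie below the lower one.

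The ratios were concentrated towards the lower end of their range. The ratio of the AC15 to the AC18 mean was between 4 and 5 for 47 members, between 5 and 8 for 54, between 8 and 16 for 20, between 16 and 32 for 7, and above 32 for 5. The median ratio was 5.66, with quartiles at 4.65 and 7.84. The median level was 43.8 CPM in AC15 and 6.81 CPM in AC18. A total of 62 members lay between 20 and 40 CPM in AC15, 44 between 40 and 100, 20 between 100 and 200, and 7 above 200. Members with more counts in AC15 did not differ consistently more: Spearman's rho between the AC15 mean and the ratio was 0.15 across the 133 members, given as a description because the AC15 level enters both measures.

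Errors of single genes were taken from a fit of edgeR's quasi-likelihood model to all 24018 genes that passed its filter on low counts, with genotype as the factor. All 133 members passed that filter, which they were bound to do by their AC15 level. In this fit 59.5% of all tested genes were called at an adjusted p under 0.05 (Benjamini-Hochberg), and 30.0% were called higher in AC15. All 133 members were among the latter, and because the choice was made on the same contrast nothing is read from that count. Likewise, the 3 AC15 libraries lay above the 3 AC18 libraries for all 133 members, as they did for 28.9% of all tested genes. The median log2 fold change of AC15 over AC18 was 2.56 for the members and 0.01 for all genes tested. Without AC15 replicate 2 the members' median was 2.51, and all 133 were still called higher in AC15.

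The fit also gives the error of each member's difference. The standard error of the log2 fold change ranged from 0.07 to 0.47 among members, with a median of 0.14. The 95% interval lay entirely above 4-fold for 100 of the 133 members, against 1.29% of all tested genes. It lay above 2-fold for 132 members, against 4.93% of all tested genes. These counts follow from a choice made on the same libraries and contrast, and nothing is read from them. For the remaining 33 members the interval reached down to 4-fold or less, so a true difference under the limit is within the error of these libraries. For Oeu061865.1 it reached down to 1.99-fold. The fit corrects library totals (TMM scaling), whereas the rule used totals alone. With totals alone the members' median log2 fold change was 2.51 instead of 2.56, so the scales differ slightly. In 97 members even the lowest AC15 library was at least 4 times the highest AC18 library. This count also follows from the choice, its share over all tested genes was not computed, and nothing is read from it.

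**Figure D2:**
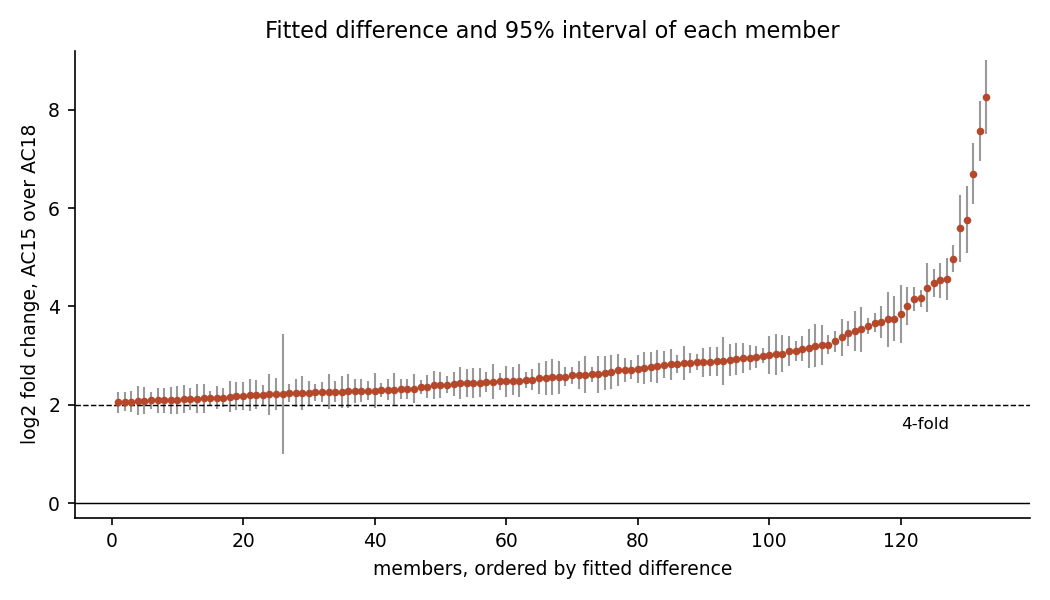
Fitted log2 fold change of AC15 over AC18 (points) with its 95% interval (bars) for each of the 133 members, ordered by size, from edgeR's fit over all tested genes with 3 libraries per genotype. The dashed line marks 4-fold. Most members lie close above it. The 5 with a ratio of means above 32 stand at the right end, with longer bars than most members. The longest bar belongs to Oeu061865.1.

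The member with the most counts was Oeu010928.1. It stood at 625, 703 and 599 CPM in AC15 replicates 1, 2 and 3 and at 50.6, 49.8 and 62.9 CPM in the AC18 replicates. The lowest AC15 library was thus 9.52 times the highest AC18 library, and AC18 replicate 3 was the highest of its genotype. The fitted log2 fold change was 3.61 ± 0.08 (SE), and the gene was also among the 3 members with the highest AC18 level.

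Next came Oeu018774.1 with 312, 316 and 337 CPM in AC15 and 17.7, 17.6 and 20.3 CPM in AC18, a ratio of means of 17.4. Oeu064134.1 stood at 313, 334 and 310 CPM in AC15 and 44.5, 38.5 and 40.9 CPM in AC18, a ratio of 7.73. In both genes the libraries of a genotype lay close together and far from those of the other genotype.

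Oeu030548.1 was less even within AC15. Its libraries stood at 242, 351 and 283 CPM, with replicate 2 the highest, against 46.1, 40.5 and 36.6 CPM in AC18. Its mean of 292 ± 55.4 CPM in AC15 (SD, n = 3) was 7.11 times the AC18 mean of 41.1 ± 4.81 CPM (SD, n = 3).

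A further pair of genes of this group combined a high level in AC18 with a ratio close to the limit. Oeu035779.1 had the highest AC18 level of all members, 58.9, 65.0 and 56.4 CPM, beside 294, 278 and 290 CPM in AC15. Oeu004172.1 stood at 197, 190 and 214 CPM in AC15 and at 47.8, 47.6 and 45.8 CPM in AC18. The ratios were 4.78 and 4.25, and the 95% interval of the fitted fold change reached from 3.96 to 4.88 for Oeu004172.1, so a difference under 4-fold is within its error.

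The remaining 4 of the 10 members with the most counts covered a wide range of AC18 levels. Oeu000866.1 averaged 228 ± 17.5 CPM in AC15 (SD, n = 3), against 38.1 ± 2.18 CPM in AC18 (SD, n = 3). Oeu032803.1 averaged 194 ± 17.5 CPM in AC15 and 15.8 ± 2.06 CPM in AC18. Their ratios were 5.97 and 12.3.

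Oeu034073.1 averaged 189 ± 0.518 CPM in AC15, against 38.2 ± 1.23 CPM in AC18 (SD, n = 3 each). Oeu002036.1 averaged 193 ± 4.72 CPM in AC15, against 6.35 ± 1.54 CPM in AC18 (SD, n = 3 each). The ratios between the genotypes were 4.96 and 30.3.

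**Figure D3:**
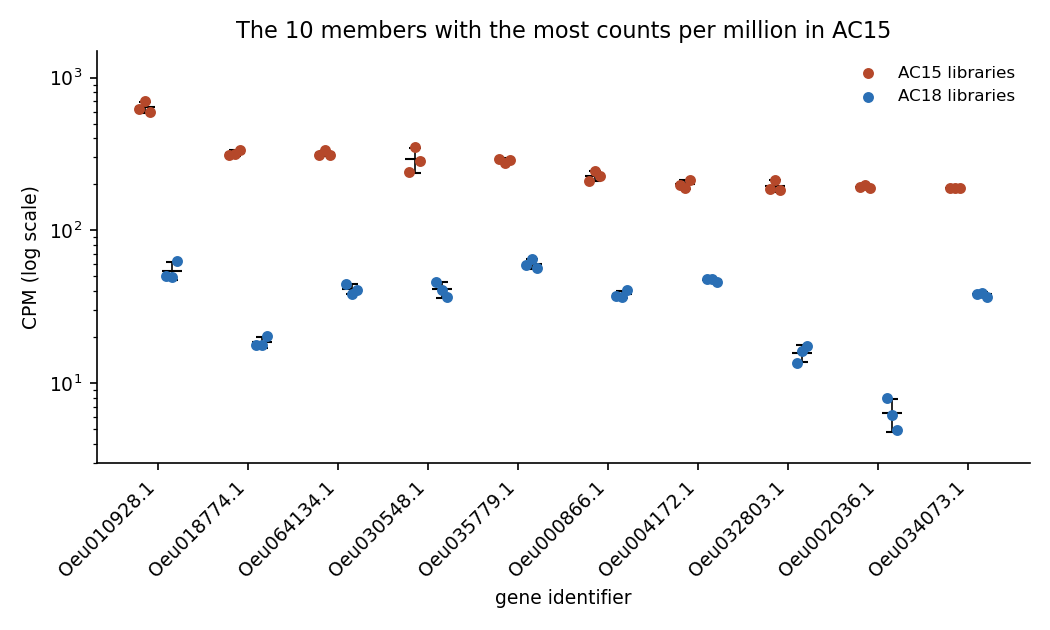
CPM on a log scale for the 10 members with the most counts in AC15, by library. Points are single libraries (AC15 red, AC18 blue), and the black marks are the mean and SD of 3 libraries. The genotypes do not overlap in any of the 10, AC15 points lie between 183 and 703 CPM, and Oeu002036.1 has the lowest AC18 values.

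The 5 members with a ratio above 32 were hardly read in AC18. Their AC18 means were all under 1 CPM, and for them the condition that the gene be read in both genotypes rests on a handful of counts. Oeu063598.1 had 1123, 1490 and 1206 counts in the AC15 libraries and 5, 5 and 3 in the AC18 libraries. This was the highest ratio of the set, 302, with a 95% counting interval of 179 to 575 for the ratio of summed counts.

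Oeu033555.1 had 1312, 1789 and 1218 counts in AC15 and 8, 7 and 9 in AC18. Oeu020735.1 had 645, 765 and 659 counts in AC15 and 4, 11 and 6 in AC18. The ratios of mean CPM were 186 and 102, with counting intervals for the summed counts of 126 to 293 and 66.9 to 166. All AC18 libraries held a few reads of each gene, and none came near the AC15 level.

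Oeu030131.1 and Oeu018751.1 showed the same pattern at a lower level. Oeu030131.1 had 332, 324 and 372 counts in AC15 and 6, 8 and 6 in AC18, and Oeu018751.1 had 254, 272 and 251 in AC15 and 4, 6 and 7 in AC18. The ratios were 53.6 and 47.9. PCR copies of a read are no independent molecules, so these intervals hold counting error alone.

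Under these 5 came Oeu002036.1, described above, and 4 genes with ratios from 20.2 to 23.0. Oeu049957.2 had 331, 396 and 312 counts in AC15 and 12, 18 and 17 in AC18. Oeu057403.1 had 545, 579 and 557 counts in AC15 and 23, 19 and 36 in AC18. Oeu044026.1 had 795, 916 and 737 counts in AC15 and 42, 43 and 33 in AC18.

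The last of these, Oeu034561.1, had 226, 298 and 224 counts in AC15 and 16, 12 and 10 in AC18. Within AC18 the 3 libraries of each of these genes differed by less than 2-fold. At least 10 counts in each AC18 library were held by 127 of the 133 members. The 6 others were the 5 genes above and Oeu049975.1. The name "expressed in both" therefore rests on few reads in these 6, but the border at 10 counts is gradual. Oeu049975.1 averaged 1.83 CPM in AC18, while Oeu034561.1, which is among the 127, averaged 1.57 CPM. The AC18 mean was under 5 CPM for 39 members and at 20 CPM or more for 17.

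Values at the limits of the rule show how gradual its borders are. The members nearest to the limit of 4-fold were Oeu031344.1, Oeu021464.1 and Oeu050219.1, with ratios of 4.00, 4.05 and 4.06. Just outside lay Oeu044530.1, Oeu029679.2 and Oeu032515.1 with ratios of 3.998, 3.98 and 3.95. Oeu031344.1 inside the limit averaged 55.1 ± 1.81 CPM in AC15, against 13.8 ± 0.220 CPM in AC18 (SD, n = 3 each). Oeu044530.1 outside it averaged 55.2 ± 2.90 CPM and 13.8 ± 0.874 CPM, so the means of the pair differed by less than the spread between replicates.

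At the limit of 20 CPM, the lowest members stood at 20.6, 20.8 and 21.1 CPM in AC15 (Oeu050451.1, Oeu013160.1 and Oeu037706.1). Rows just under it that met the other conditions stood at 19.7, 19.6 and 19.5 CPM (Oeu036491.2, Oeu058059.1 and Oeu041987.1). The 2 rows left out as too abundant were Oeu064909.1 and Oeu017729.1. Oeu064909.1 averaged 5931 ± 669 CPM in AC15 and 805 ± 21.0 CPM in AC18, and Oeu017729.1 averaged 841 ± 55.6 and 90.2 ± 5.22 CPM (SD, n = 3 each).

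The rule did not use variation between libraries of a genotype directly. A high library does raise the AC15 mean on which the rule acts, so the spread within AC15 is not independent of the choice. Of the 133 members, 124 were kept without AC15 replicate 2, against 132 and 130 without replicates 1 and 3. The coefficient of variation (CV, the SD as a percentage of the mean over 3 libraries) had a median of 7.98% in AC15 among members. It was 6.86% among the 9528 other rows at 20 CPM or more in AC15. A CV above 20% was found in 9 members (6.77%) and in 2.11% of the other rows. Between the quartiles of the members' AC15 level the medians were 8.10% for 67 members and 6.91% for 4693 other rows. Leaving out a library gives a CV over 2 libraries, which is not directly comparable with that over 3. The members' median was then 6.00%, 5.21% and 7.81% without replicates 1, 2 and 3, so it was lowest without replicate 2. How much of the fall is due to that library was not tested. Without replicate 2 the median of the other rows was 4.53%. A CV above 20% was left without replicate 2 in 3 members (2.26%) and in 1.12% of the other rows. Between the same quartiles the medians without it were 5.62% and 4.75%.

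In AC18 the members' median CV was 10.5%. Most of them are low there, where counting error alone is larger. Between the quartiles of their AC18 level the median was 11.1% for 67 members and 11.6% for 5717 other rows. The 17 members at 20 CPM or more in AC18 had a median of 7.28%, against 5.33% in 9824 other rows. These members reached at most 60.1 CPM in AC18, while the other rows had no upper limit, so this comparison is not matched in level. Genes are not replicates, so these differences carry no test.

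The most even members in AC15 were Oeu054861.1, Oeu034073.1 and Oeu050219.1. Oeu054861.1 stood at 41.4, 41.2 and 41.4 CPM in AC15 and at 6.45, 4.82 and 6.05 CPM in AC18. Oeu050219.1 stood at 48.9, 48.3 and 48.8 CPM in AC15 and at 11.5, 11.4 and 13.0 CPM in AC18. Their CV in AC15 was 0.240% and 0.632%. Counting error alone is larger at their AC15 counts of 309, 350 and 310 (Oeu054861.1) and 365, 410 and 365 (Oeu050219.1). Such low values are extremes picked out of 133 members with 3 libraries.

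Replicate 2 was the highest or the lowest AC15 library in each of the 3 least even members. Oeu061865.1 stood at 42.0, 17.9 and 38.7 CPM in AC15, so replicate 2 was the low library, and at 6.82, 6.21 and 8.62 CPM in AC18. Its lowest AC15 library was 2.08 times its highest AC18 library, the narrowest gap in the set. The fitted log2 fold change was 2.22 ± 0.47 (SE) with all libraries and 2.52 without AC15 replicate 2.

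In the other 2 genes replicate 2 was the high library. Oeu045378.1 stood at 15.8, 27.4 and 21.5 CPM in AC15 and at 3.92, 2.66 and 2.45 CPM in AC18. Oeu049975.1 stood at 21.2, 33.7 and 22.4 CPM in AC15 and at 1.01, 2.15 and 2.33 CPM in AC18. Over replicates 1 and 3 alone, the CV in AC15 was 5.78% for Oeu061865.1 and 4.18% for Oeu049975.1. It was 21.6% for Oeu045378.1, in which replicates 1 and 3 also differed.

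Replicate 2 was the highest AC15 library for 78 of 133 members (58.6%) and for 43.8% of the 9528 other rows at 20 CPM or more in AC15. With TMM scaling, which corrects library totals for a few very abundant genes, the shares were 48.1% (64 members) and 37.4%. The median ratio of replicate 2 to the mean of replicates 1 and 3 was 1.06 for members and 1.02 for other rows. It reached 1.5-fold in either direction for 2 members, Oeu049975.1 at 1.55 and Oeu061865.1 at 0.443, and for 0.535% of the other rows. Replicate 1 was the lowest AC15 library for 66 members (49.6%) and for 35.9% of the other rows. A high replicate 2 also helps a row to reach the limits of the rule, so these shares are not independent of the choice. No cause of this shift in level was tested.

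**Figure D4:**
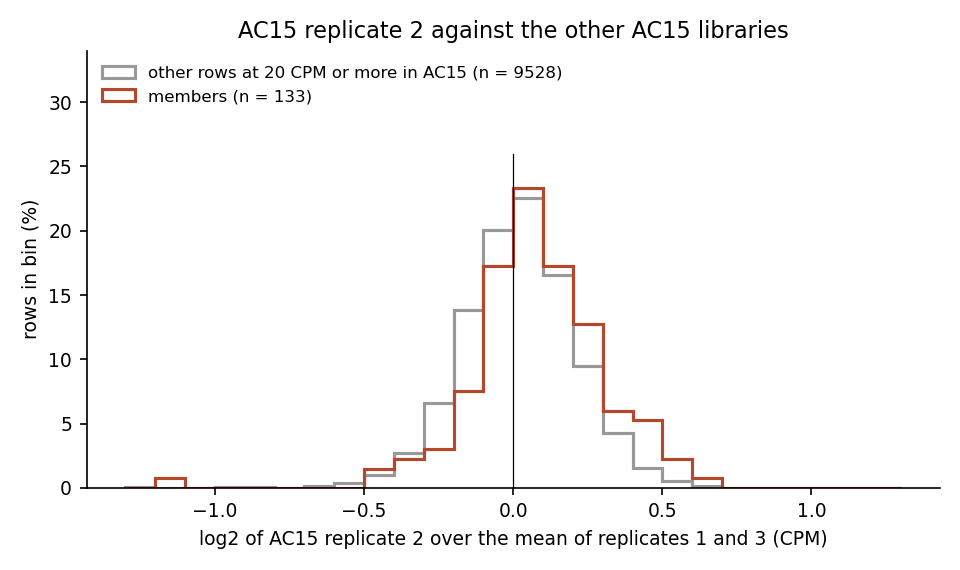
Distribution of the log2 ratio of AC15 replicate 2 to the mean of AC15 replicates 1 and 3 (CPM), as the percentage of rows in bins 0.1 wide, for the 133 members (red) and the 9528 other rows at 20 CPM or more in AC15 (grey). The members are shifted slightly to the right, with a median ratio of 1.06 against 1.02, and Oeu061865.1 lies alone at the far left.

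The identifiers offer the only other feature of the members. They rise through the table without repeats, but whether neighbouring numbers are neighbouring genes on a chromosome is not given in the sources used here. Members occurred in all parts of the number range. Per 10000 numbers they made up between 1.04% and 1.94% of the rows at 20 CPM or more in AC15, except from 20001 to 30000, where 7 members made up 0.455% of 1538 such rows. The set with the genotypes exchanged had 32 members among the 7928 rows of that stretch. It had 27 to 41 in the other stretches up to 60000, and 14 in the last, which holds only 3837 rows. Identifiers ending in a suffix above 1 made up 16 of the 133 members (12.0%), 18.5% of the other rows at 20 CPM or more in AC15 and 9.51% of the table.

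A single pair of members carried consecutive numbers, Oeu018773.1 and Oeu018774.1. Oeu018773.1 stood at 108, 95.3 and 106 CPM in AC15 and at 15.7, 14.3 and 14.3 CPM in AC18, a ratio of 6.99. Its partner, with the values given above, had a ratio of 17.4. The rows beside the pair, Oeu018771.1 and Oeu018775.1, held 0 and 1 counts in all libraries together. Another pair, Oeu053197.1 and Oeu053199.1, lay 2 numbers apart with ratios of 4.39 and 13.1, and there was no further pair within 5 numbers. How many close pairs the same number of other rows would hold was not computed, so nothing is read from their number.

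Rows beside the members in identifier number were also examined. There were 212 rows, not members themselves, at a number 1 above or below a member, and 116 of them passed the filter on low counts. Of these, 47 (40.5%) were called higher in AC15, against 30.0% of all tested genes, and 33 (28.4%) were called higher in AC18, against 29.5%. At least 2-fold differences were called higher in AC15 for 21 of the 116 (18.1%), against 8.99% of all tested genes, and higher in AC18 for 12 (10.3%), against 11.2%. The median log2 fold change of the 116 rows was 0.13. The shares did not change evenly with distance. With members included where they fell at that distance, rows 3 and 2 numbers before a member were called higher in AC15 in 45.3% and 36.8% of cases, and rows 2 and 3 numbers after it in 32.7% and 27.1%. At 2 numbers after, more rows were called higher in AC18 (38.2%). The set with the genotypes exchanged showed the mirror image: of 182 tested rows next to its members, 75 (41.2%) were higher in AC18 by the same call, and 40 (22.0%) were higher in AC15. These shares rest on the same contrast as the rule and are given without a test.

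**Figure D5:**
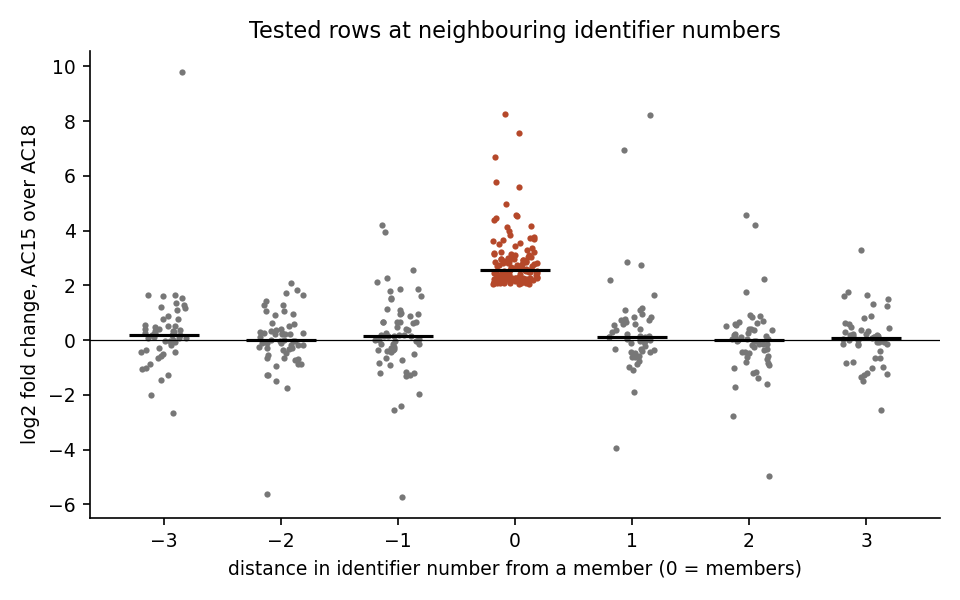
Fitted log2 fold change of AC15 over AC18 for tested rows that are not members, by their distance in identifier number from a member (grey), and for the members themselves at 0 (red). Black bars are medians. The medians at distances of 1 to 3 lie near 0 on either side, and single rows reach large differences in both directions.

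Rows with very large differences were few. Within 3 numbers of a member, 9 of 326 tested rows that are not members (2.76%) had a fitted difference of at least 16-fold, against 2.08% of all tested genes. They were 6 rows higher in AC15 and 3 higher in AC18, and 4 of the 9 had at most 1 count over all libraries of a genotype, so their fitted size is not determined. Those named here were picked after their values had been seen. Oeu013618.1, which lies 3 numbers before the member Oeu013621.1, was counted 111, 90 and 118 times in AC15 and never in AC18 (0 in 3 libraries). Oeu040037.1, next to the member Oeu040036.1, was counted 27, 42 and 40 times in AC15, again with 0 in AC18. Oeu020737.2, which lies 2 numbers after Oeu020735.1, had 49, 50 and 44 counts in AC15 and 1, 3 and 4 in AC18, so both were almost unread in AC18.

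The member with the highest ratio had a close number with the opposite pattern. Oeu063596.1, 2 numbers before Oeu063598.1, had 7, 20 and 10 counts in AC15 and 667, 624 and 679 in AC18. Oeu063598.1 itself had 1123, 1490 and 1206 counts in AC15 and 5, 5 and 3 in AC18. Thus each genotype held many reads of one of these identifiers and few of the other. Whether the 2 are copies of a gene, between which the counting could divide reads, is not given in the sources used here and was not tested. Rows of the set with the genotypes exchanged lay within 5 numbers of 3 further members. They were Oeu036103.2 near Oeu036107.1, Oeu058833.1 near Oeu058834.1 and Oeu030173.1 near Oeu030178.1. How often rows of the whole table lie this close to a row of the exchanged set was not computed. Nothing is therefore read from the number of such pairs.

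With the genotypes exchanged, the same rule took more rows and larger differences. It took 223 rows higher in AC18, and their median ratio was 7.26 against 5.66 for the 133 members. A ratio of at least 16 was reached by 51 of the 223 (22.9%) and by 12 of the 133 (9.02%). The levels in the higher genotype were similar, with medians of 49.9 CPM in AC18 and 43.8 CPM in AC15. The exchanged set held 1.93% ± 0.0282 of all AC18 counts, compared with 0.270% ± 0.00214 for AC15 (SD, n = 3 each). Both sets were chosen on the contrast in which they are compared here, so the differences between them are a description without a test. With TMM scaling the numbers were 144 and 213, and they were 128 to 141 and 216 to 229 when single libraries were left out.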

How the data were processed

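The authors deposited 1 table of estimated counts, whole numbers per identifier and library, used as deposited. FastQC, Trimmomatic and kallisto 0.46.1 are named in the submitters' processing notes. Per the labels' protocols the libraries were poly(A)-selected, stranded and read as pairs of 100 bases. Neither the transcript reference nor a rounding step is stated there. kallisto divides reads among similar transcripts, so near-identical copies can share counts. Totals ran from 7468058 to 8589143 counts.

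CPM used column totals. edgeR 4.0.16 (R 4.3.3) was fitted to all genes kept by filterByExpr (minimum count 10, minimum total 15) with TMM scaling, a robust quasi-likelihood fit and genotype as the factor; p-values were two-sided and Benjamini-Hochberg adjusted over 24018 genes. Standard errors and 95% intervals came from the Wald variance at the fitted means. Counting intervals are Clopper-Pearson. The fit was tested on data simulated from its own model, which does not test whether that model suits these libraries. DESeq2 1.42.0 was an alternative. No libraries agreed within sampling noise (lowest chi-square per row 1.50). Members, lists and the rule for named genes were chosen with earlier results of these data known. That rule took the 10 members with the most CPM in AC15, the 10 highest ratios, the 3 highest in AC18, the 3 most and 3 least even in AC15, those nearest the 4-fold limit, and pairs of consecutive numbers. Product-name lists for defence and stem tissues could not be run, because 0 identifiers matched.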

Additional observations from a re-analysis of the deposited data

How the results depend on the processing

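The number of members followed the limits of the rule: 205 at 10 CPM, 71 at 40 CPM, 248 at 3-fold and 86 at 5-fold. With the genotypes exchanged it was 369 at 10 CPM, 130 at 40 CPM and 358 at 3-fold. Other changes kept it within 1.5 times of 133, from 97 where every library had to differ 4-fold to 144 with TMM scaling. Leaving out single libraries gave 128 to 141 rows, and 116 of the 133 members recurred each time. The members' share of counts was 1.04% in AC15 and 0.161% in AC18 with members from TMM scaling, and 0.954% to 1.10% and 0.138% to 0.159% without single libraries. Members with another member close by numbered 2 at the next identifier, 4 within 2, 3 or 5 numbers, and 6 at 3-fold.

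The 14302 genes called became 12516 with DESeq2 and 15887 without the filter, and 12893 to 14332 without single libraries. All 133 members were called in each fit, except 132 without AC18 replicate 1. Of 297 values for the 27 named members, 296 kept direction and call; the exception was Oeu061865.1 without AC18 replicate 1 (log2 fold change 2.19). These members were chosen for the difference, so this is no further support. A replicate block gave 14191 calls and called all 133 members. Same-numbered libraries deviated with correlations of -0.03, -0.02 and -0.05, and 0 of 6 libraries correlated best with its own number. These correlations cannot show whether libraries were handled together, since only 3 libraries per genotype enter them. No pairing was assumed in the main fit. Depth limits the 6 members with under 10 counts in an AC18 library, whose 95% counting intervals end within 2-fold of the ratio.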
